A study of Mus musculus with 8 samples.

Results

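The Janus kinases Jak1, Jak2 and Jak3 and the signal transducers Stat2, Stat3, Stat4, Stat5a, Stat5b and Stat6 were examined in mouse bone marrow-derived macrophages polarized to M0, M1 or M2. All probe sets annotated to exactly 1 of these 9 symbols were taken, which gave 19 probe sets of the 45037 tested, standing for 9 of 18193 named genes. Jak1 had 3 probe sets, Stat3 had 4, Jak3 and Stat4 had 1 each, and the other members had 2. The probe set with the highest mean log2 intensity over all arrays is called the lead probe set of a gene.

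Macrophages were grown from bone marrow of wild-type C57BL/6J mice with L929-conditioned medium, replated without it on day 7 and kept for 24 hours in media alone (M0, 3 arrays), with LPS at 100 ng/ml and IFN-γ at 20 ng/ml (M1, 3 arrays) or with IL-4 at 20 ng/ml (M2, 2 arrays). RNA was hybridized to 1-colour Affymetrix mouse arrays, and values are RMA intensities in linear units. The array titles call them biological replicates, the design text of the series has replicates of a condition come from different mice, and the methods name both independent mice and in vitro replicates, so p-values measure the spread between these arrays, which may in part be technical. Titles of the 3 conditions share the prefixes WT1, WT2 and WT3 (M2 the first and second of them), and none of these sources says whether a shared prefix means the same mouse. All 8 macrophage markers, Lyz2, Csf1r and Adgre1 among them, lay above the array median on all 8 arrays. Their summed intensity was 78570 to 81230 units in M0, 76000 to 77620 in M1 and 53160 to 56860 in M2, and 5 of the 8 (Adgre1, Mertk, Cd14, Lyz2 and Fcgr1) were lower in M2 than in M0. Of 7 measured T cell markers and 5 measured NK cell markers, 4 in each list lay below the array median on all arrays, and the summed T cell signal was 257 to 284 units in M0, 226 to 268 in M1 and 223 to 241 in M2. The part of other cells in the values below was not tested.

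Cytokine receptors of the interferon, common gamma chain, gp130 and IL-12 families have no kinase of their own and carry Janus kinases on their intracellular tails. When a ligand joins the receptor chains, the kinases phosphorylate each other and the receptor, and the STAT proteins that dock there are phosphorylated in turn, pair up, enter the nucleus and bind DNA. In macrophages IFN-γ signals through JAK1 and JAK2, IL-4 through JAK1 and JAK3 to STAT6, GM-CSF through JAK2 to STAT5, IL-6 and IL-10 to STAT3, and type I interferon through a complex of STAT2 and IRF9. Arrays measure the transcripts of these proteins and not their phosphorylation.

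The start-site windows of the members were searched on both strands for 3 short motifs: the STAT site GAS (TTCNNNGAA), its longer form bound by STAT6 (TTC and GAA with 4 free bases between them) and the core of the interferon response element ISRE (GAAA and GAAA with 2 free bases between them). The windows come from RefSeq (GRCm38.p6) and run from 250 bases before to 50 after each annotated start, 300 bases in all, and 12 windows covered the 9 genes. Only the Stat2 window and the downstream one of 2 Stat4 windows held a match. They are shown because both genes were higher in M1, with the Jak2 window, which held none, shown because Jak2 changed most. Capitals mark the matches.
Stat2, chr10:128270248-128270547, plus strand: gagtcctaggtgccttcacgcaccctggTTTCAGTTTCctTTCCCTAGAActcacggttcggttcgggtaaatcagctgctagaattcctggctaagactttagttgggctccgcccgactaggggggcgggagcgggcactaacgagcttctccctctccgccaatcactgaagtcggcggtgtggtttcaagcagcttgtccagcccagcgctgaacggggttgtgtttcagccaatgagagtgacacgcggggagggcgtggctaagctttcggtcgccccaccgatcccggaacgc
Stat4, chr1:52007990-52008289, plus strand: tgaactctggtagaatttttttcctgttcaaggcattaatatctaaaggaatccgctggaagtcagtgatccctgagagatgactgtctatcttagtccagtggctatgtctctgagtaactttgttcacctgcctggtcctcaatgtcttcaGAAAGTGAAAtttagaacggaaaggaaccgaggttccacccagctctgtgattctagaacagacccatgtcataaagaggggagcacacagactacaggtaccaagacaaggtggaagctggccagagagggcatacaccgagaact
Jak2, chr19:29251553-29251852, plus strand: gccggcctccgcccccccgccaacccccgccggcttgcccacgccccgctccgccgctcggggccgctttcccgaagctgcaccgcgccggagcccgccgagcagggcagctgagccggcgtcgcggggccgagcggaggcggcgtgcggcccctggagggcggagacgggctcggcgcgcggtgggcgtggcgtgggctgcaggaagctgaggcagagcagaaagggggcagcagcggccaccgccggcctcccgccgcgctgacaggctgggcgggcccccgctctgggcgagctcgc
In the Stat2 window the ISRE core lay on the opposite strand as TTTCAGTTTC (bases 128270276 to 128270285), and TTCCCTAGAA, a match of the longer form, followed at 128270288 to 128270297 with no overlap. The Stat4 match GAAAGTGAAA lay at 52008143 to 52008152. Of 32851 RefSeq promoter windows of the same length, 8.3% held the GAS motif, 6.95% its longer form and 3.44% the ISRE core. A match describes these letters only, and the Jak2 window was 81.0% G and C.

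In M1 against M0, 9 of the 19 probe sets were called higher at an adjusted p under 0.05 (limma, Benjamini-Hochberg over all probe sets) and 0 lower (1 at an unadjusted p under 0.05, the lead probe set of Stat5b); over all probe sets 10.2% were called higher and 10.2% lower. By lead probe set these were Jak1, Jak2, Stat2 and Stat4, so 4 of 9 genes were higher and 0 lower, beside 13.7% and 11.5% of all genes. In M2 against M0, 4 probe sets were higher and 3 lower, beside 6.32% and 5.85% of all probe sets, and by lead probe set Jak2 and Stat5a were higher and Stat2 lower, beside 8.03% and 6.43% of all genes. Between M1 and M2, 9 probe sets were higher and 1 lower in M1, beside 8.87% and 10.1% of all probe sets; by lead probe set 5 genes were higher and 1 lower, beside 11.5% and 12.3% of all genes. Changes of at least 2-fold were called in M1 for 5 probe sets (2.1% of all probe sets were called higher by that rule), those of Jak2, Stat2 and Stat4. The methods' t-test with adjustment gave 3 higher in M1 than in M0 (both Jak2 probe sets and Stat4), 0 higher and 0 lower in M2 against M0 (5 and 5 without adjustment), and 2 higher in M1 than in M2 (both of Stat2). A lower intensity in this bulk RNA can come from fewer cells with the transcript or from less of it per cell, which cannot be told apart.

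**Figure D1:**
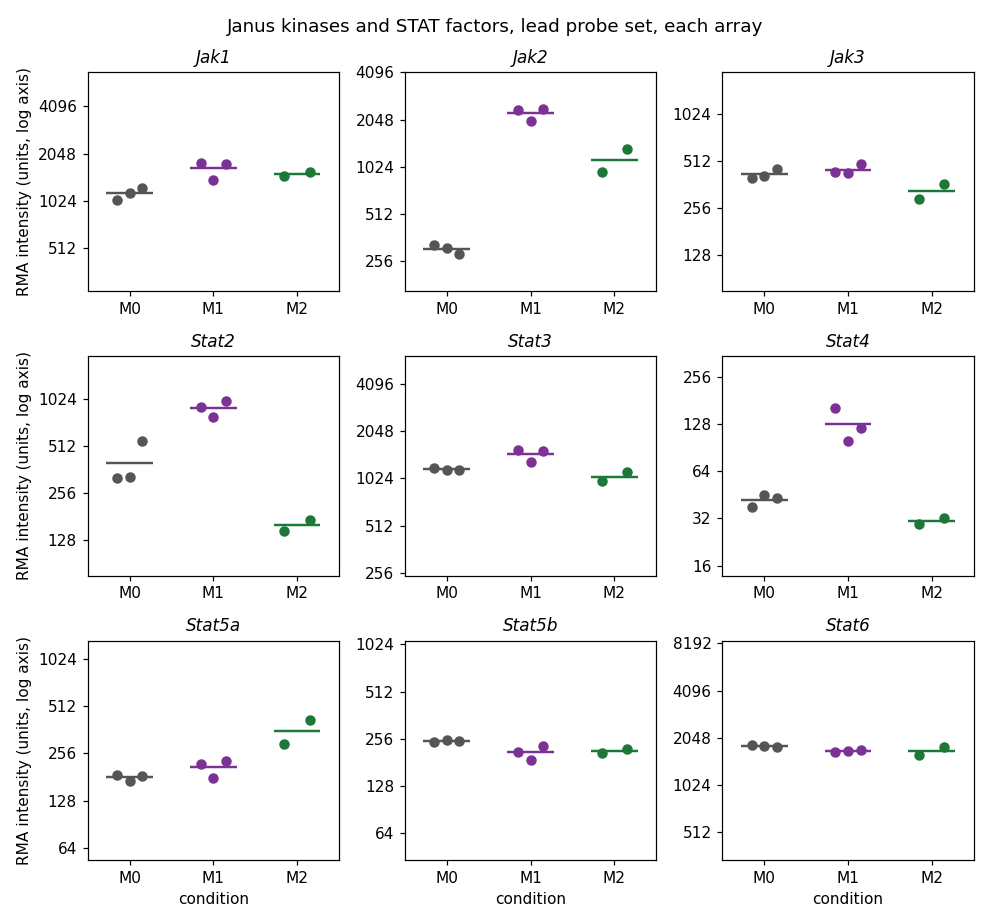
RMA intensity of the lead probe set of each of the 9 genes (log axis, each panel spanning the same fold range), with 1 point per array and a line at the mean of each condition. The M0, M1 and M2 arrays of Jak2 and of Stat2 form 3 separate groups, Stat4 stands apart in M1 and Stat5a in M2, and Stat6 stays between 1591 and 1829 units.

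Jak2 is the kinase of the IFN-γ, GM-CSF and IL-12 receptors, and it was higher in both polarized states. Its lead probe set (1421066_at) read 324, 310 and 285 units on the M0 arrays, 2345, 1995 and 2389 in M1, and 946 and 1325 in M2. No array of one condition overlapped those of another. The rise over M0 was 7.31-fold in M1 (95% interval 5.98 to 8.93, log2 fold change 2.87 ± 0.13 SE, limma adjusted p = 3.19e-08) and 3.66-fold in M2 (2.92 to 4.58, log2 1.87 ± 0.15, adjusted p = 4.66e-06). In M1 it was the 69th largest rise and in M2 the 107th among 18193 genes. M1 exceeded M2 by 2.00-fold (log2 1.00 ± 0.15, adjusted p = 0.000374), so all neighbours in the order M0, M2, M1 differed beyond their spread. The other probe set, 1421065_at, gave the same order, with 176, 186 and 253 units in M0, 2959, 1922 and 2582 in M1, and 723 and 1141 in M2. Its log2 fold changes were 3.60 ± 0.20 in M1 and 2.17 ± 0.22 in M2 (adjusted p = 1.27e-07 and 4.31e-05). Within M2, replicate 2 was the higher array on both probe sets.

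Jak1, which serves the interferon, IL-4 and IL-6 receptors alike, moved far less. The lead probe set (1433805_at) read 1044, 1148 and 1238 units in M0, 1776, 1399 and 1774 in M1, and 1486 and 1576 in M2. Every M1 and M2 array lay above every M0 array. M1 was 1.44-fold above M0 (1.20 to 1.72, limma adjusted p = 0.00682), whereas the 1.34-fold difference of M2 from M0 missed the threshold (1.10 to 1.64, adjusted p = 0.0586), and M1 and M2 overlapped. The M2 difference passed under 7 of 19 alternatives, so its call was sensitive to the settings. The other probe sets of Jak1 were not called in any comparison; in M1 1433803_at stood 0.31 (adjusted p = 0.0512) and 1433804_at 0.46 (0.0858) above M0 on the log2 scale, and in M2 0.02 and 0.10.

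Jak3 pairs with the common gamma chain of the IL-4 receptor. Its only usable probe set (1425750_a_at) read 400.5, 412 and 456 units in M0, 434, 428 and 489 in M1, and 293 and 366 in M2. Both M2 arrays lay under all others. The log2 fold change was 0.09 (95% interval -0.16 to 0.34) in M1 and -0.36 (-0.64 to -0.09, limma adjusted p = 0.0907) in M2, neither of them called. M1 was above M2 by 1.37-fold (adjusted p = 0.0243), a call that was lost without M1 replicate 3 (adjusted p = 0.0694) and without M2 replicate 1 (0.236), with only these 2 conditions in the fit (0.0507) and with the replicate number as a block (0.0637). A further 2 probe sets carry a second symbol beside Jak3 and were not used.

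Among the lead probe sets of the STAT factors, that of Stat2 was called in opposite directions in M1 and M2. STAT2 is the transactivating subunit of the complex that type I interferon activates. Its lead probe set (1450403_at) read 320, 327 and 547 units in M0, 910, 786 and 997 in M1, and 147 and 173 in M2. The 3 conditions did not overlap, although M0 replicate 3 stood well above the other M0 arrays. M1 was 2.32-fold above M0 (1.75 to 3.06, log2 1.21 ± 0.19 SE, limma adjusted p = 0.000432), and the log2 fold change of M2 was -1.27 ± 0.21 (2.42-fold lower, adjusted p = 0.00144). M1 stood 5.60-fold above M2 (4.10 to 7.66, adjusted p = 2.81e-06). The other probe set, 1421911_at, read 274, 224 and 357 units in M0, 585, 550 and 644 in M1, and 114 and 141 in M2, and changed by 1.08 ± 0.16 (adjusted p = 0.000299) in M1 and -1.14 ± 0.18 (0.00095) in M2 on the log2 scale. Both probe sets kept both calls when any single array was left out.

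STAT4 is known mainly from T and NK cells, where it carries IL-12 signals. The only Stat4 probe set (1448713_at) read 37.8, 45.1 and 42.9 units in M0, 163, 99.3 and 121 in M1, and 29.4 and 32.2 in M2. Array medians ran from 38.9 to 40.5 units, so Stat4 lay below the array median on 1 of the 3 M0 arrays and on both M2 arrays, and well above it on all M1 arrays. The M1 arrays lay 2.99-fold above M0 (2.36 to 3.79, log2 1.58 ± 0.16 SE, limma adjusted p = 1.5e-05) and 4.06-fold above M2 (log2 2.02, adjusted p = 3.98e-06). These folds rest on dim M0 and M2 values: with values under 64 units set to 64 the log2 fold change was 0.965 in both comparisons (adjusted p = 0.00256 and 0.00466). The log2 fold change of M2 against M0 was -0.44 (-0.83 to -0.06, adjusted p = 0.138) and was not called. Of the NK cell markers 0 of 5 were called in any comparison (1 passed an unadjusted limma p under 0.05, in M1 against M2). Among 7 T cell markers 1 was higher (Cd5) and 1 lower (Cd4) in M1 than in M0. Cd4 was also lower in M2 than in M0 (log2 -0.57, limma adjusted p = 0.0273), and Cd5 lay below the array median on all arrays. The summed NK cell signal was 136 to 146 units in M0, 141 to 158 in M1 and 139 to 142 in M2.

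Stat5a, whose product acts below the GM-CSF and common gamma chain receptors, was highest in M2. Lead probe set 1421469_a_at read 187, 171 and 184 units in M0, 218, 178 and 229 in M1, and 292 and 420 in M2. Both M2 arrays lay above all 6 others. M2 was 1.94-fold above M0 (1.53 to 2.47, log2 0.96 ± 0.16 SE, limma adjusted p = 0.00167), whereas M1 and M0 overlapped (log2 0.20, interval -0.11 to 0.51). M1 lay below M2 with a log2 fold change of -0.76 (adjusted p = 0.0044), which missed the threshold without M2 replicate 2 (-0.50, adjusted p = 0.0655). The second probe set, 1450259_a_at, read 49.0, 65.7 and 87.8 units in M0, 107, 84.8 and 108 in M1, and 140 and 166 in M2, with M2 again highest (log2 1.21 ± 0.21 over M0, adjusted p = 0.0019). On it M1 was also called above M0 (log2 0.60, adjusted p = 0.0363), but the groups overlapped and leaving out the first or second M0 array (0.139 and 0.0945) or replicate 1 or 3 of M1 (0.116 and 0.118) ended the call.

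Stat5b, the close paralog of Stat5a, gave no single direction. Its lead probe set (1422103_a_at) read 244, 250 and 246 units in M0, 212, 188 and 230 in M1, and 207 and 221 in M2, which gave log2 differences from M0 of -0.24 in M1 (limma adjusted p = 0.138) and -0.21 in M2 (0.314). The polarized arrays all lay under the M0 arrays, without a call. The other probe set, 1422102_a_at, read 132, 131 and 158 units in M0, 185, 177 and 201 in M1, and 144 and 158 in M2, and was called higher in M1 (log2 0.42 ± 0.11, adjusted p = 0.0149). That call was lost without M0 replicate 1 (0.0599), M0 replicate 2 (0.0774) or M1 replicate 3 (0.056), and the 2 probe sets disagreed in sign. Stat5b, Stat5a and Stat3 lie side by side on chromosome 11 (GRCm38.p6, starts 100780731, 100859351 and 100886806), and Stat6 and Stat2 lie on chromosome 10 (starts 127642955 and 128270498). Of the 3 neighbours on chromosome 11, Stat5a was called higher in M2 than in M0 by lead probe set, and Stat5b and Stat3 were not called.

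STAT3 carries IL-6 and IL-10 signals. The lead probe set of Stat3 (1460700_at) read 1191, 1158 and 1151 units in M0, 1546, 1294 and 1534 in M1, and 978 and 1121 in M2. The 3 conditions did not overlap, with M1 on top, yet only the difference of M1 from M2 was called (1.39-fold, 1.16 to 1.66, limma adjusted p = 0.0136, lost without M2 replicate 1 at 0.128). M1 against M0 gave a log2 fold change of 0.32 ± 0.11 (adjusted p = 0.055). Probe set 1426587_a_at was called higher in M1 than in M0 (log2 0.49, adjusted p = 0.019), which was lost without M0 replicate 2 (0.0777) or M1 replicate 1 (0.0814). Probe set 1459961_a_at read 65.8 to 79.3 units in M0, 62.9 to 106 in M1, and 38.2 and 33.6 in M2, the M2 values being below the array median. Its log2 fold change in M2 was -0.97 (adjusted p = 0.00493, and 0.0605 without M2 replicate 2) and -0.13 with values under 64 units set to 64 (adjusted p = 0.707), and 1424272_at stayed between 37.8 and 56.9 units with no call.

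Stat6, which carries the IL-4 signal, showed no called difference. Its lead probe set (1426353_at) read 1829, 1809 and 1790 units in M0, 1656, 1685 and 1707 in M1, and 1591 and 1787 in M2. The log2 fold change was -0.10 in M1 (95% interval -0.31 to 0.10, limma adjusted p = 0.532) and -0.10 in M2 (-0.33 to 0.12, 0.632). The M1 arrays and the M2 arrays both lay below the M0 arrays without overlap, by 1.08-fold and 1.07-fold. The second probe set (1421708_a_at) read 787 to 1073 units in M0, 910 to 982 in M1, and 898 and 997 in M2, with log2 fold changes of 0.05 and 0.04. Over both probe sets and the 3 comparisons, the 95% interval that reached farthest from equal levels ran from 0.842-fold to 1.26-fold (1421708_a_at, M2 over M0). The methods' t-test, which takes its spread from single probe sets, did call the lead probe set lower in M1 (adjusted p = 0.0322).

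**Figure D2:**
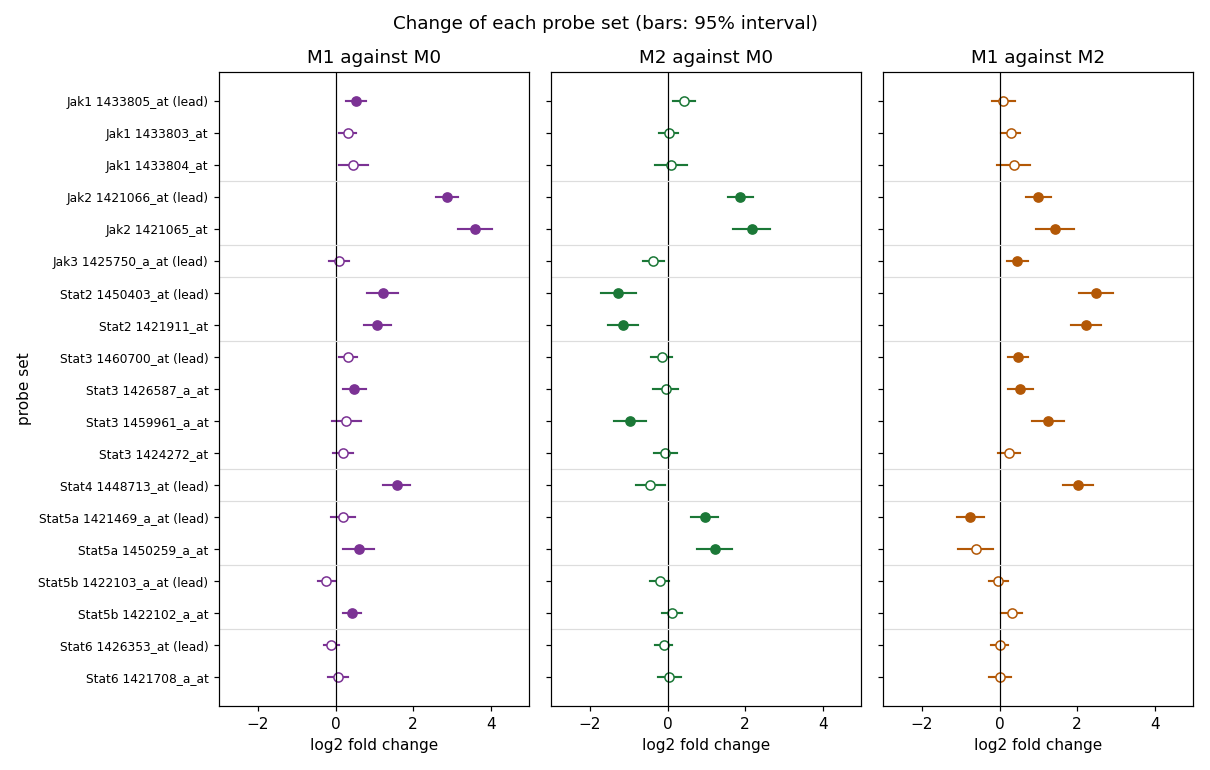
Log2 fold change (x axis) with its 95% interval for all 19 probe sets (y axis, grouped by gene) in M1 against M0, M2 against M0 and M1 against M2. Filled circles mark an adjusted p under 0.05: both Jak2 probe sets are far to the right of 0 in the first and second panel, both Stat2 probe sets lie right in the first and left in the second, and both Stat6 probe sets stay near 0.

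**Figure D3:**
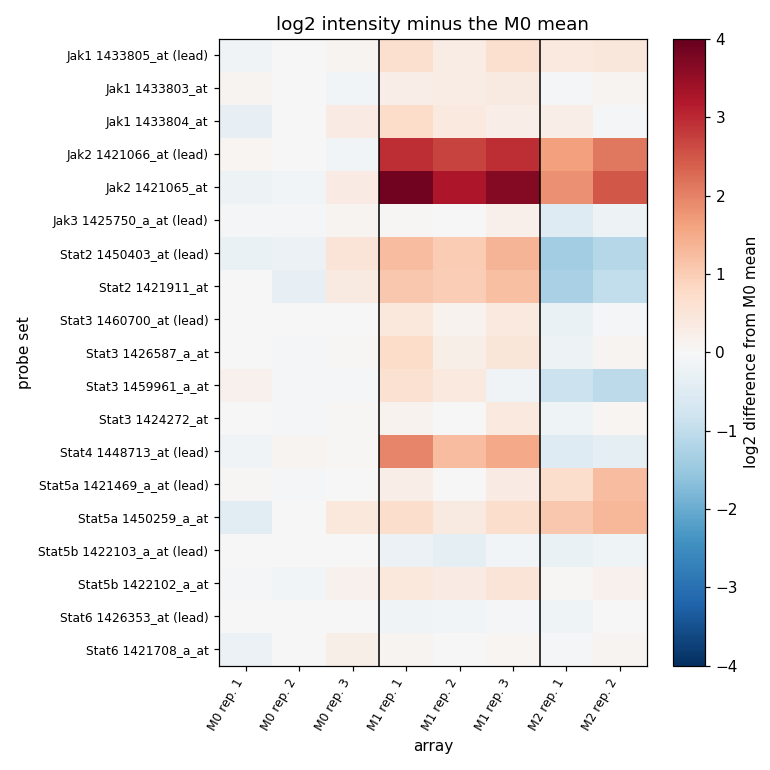
Log2 intensity of each array (columns) minus the mean of the 3 M0 arrays, for all 19 probe sets (rows), from blue (lower) to red (higher). The M1 columns are red for Jak2, Stat2 and Stat4, the M2 columns are red for Jak2 and Stat5a and blue for Stat2, and the M0 columns differ most for Stat5a 1450259_a_at (49.0 to 87.8 units) and the lead probe set of Stat2 (320 to 547 units).

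The genes around the kinases and STAT factors were taken from 8 lists by role, each gene by its lead probe set. Of 32 measured receptor genes whose products bind Janus kinases, 8 were higher and 7 lower in M1 than in M0, and 7 were higher and 4 lower in M2; over all genes 13.7% were higher and 11.5% lower in M1, and 8.03% and 6.43% in M2. The median log2 fold changes were -0.03 and -0.01, beside 0.02 and 0.01 over all genes. In M1 Il15ra, the IL-15-binding chain, rose most (log2 2.50 ± 0.12 SE), followed by Ifngr2, the JAK2-binding chain of the IFN-γ receptor (1.38 ± 0.13, limma adjusted p = 9.42e-06). Lifr, the LIF receptor, and Il7r, the IL-7 receptor, fell in M1 (log2 -3.66 and -1.96). Lifr averaged 13.3 units in M1, below the array median on all 3 arrays. With values under 64 units set to 64 its log2 fold change from M0 was -1.37 in M1 and also -1.37 in M2. In M2 Il6st, the gp130 chain shared by the IL-6 family, rose by 2.12 ± 0.11 and Il27ra by 1.65 ± 0.14, while Lifr fell by 1.78 and Il10ra, the IL-10-binding chain, fell by 1.12. Among 24 ligand genes, 6 were higher and 1 lower in M1 (median 0.07). Il6 rose by 7.77 ± 0.48 and Il12b, the shared chain of IL-12 and IL-23, by 6.94 ± 0.25, whereas Il10 fell by 1.01. Il10 averaged 29.6 units in M0 and 14.7 in M1, below the array median on all 6 arrays, and with only probe sets above 64 units, or with values under 64 set to 64, 0 ligands were lower in M1. In M2 only Il6 was called higher (2.77 ± 0.54, limma adjusted p = 0.00498, lost without M2 replicate 2), and 3 ligands were lower, namely Ebi3, a subunit of IL-27, Il15 and Il10 (log2 -1.61, -1.49 and -1.08). Of these Il10 was dim, averaging 14.0 units in M2, below the array median on both M2 arrays as on all 3 of M0. Il6 and Il12b were below the array median on all 3 M0 arrays, so their fold changes start from dim values; with values under 64 units set to 64 the rises in M1 were 4.93 and 4.94 on the log2 scale, and Il6 was not called in M2 (0.35, adjusted p = 0.739).

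Of 20 negative regulators, 7 were higher and 3 lower in M1 (median log2 fold change 0.25), and 7 were higher and 4 lower in M2 (median 0.11). Over all genes 13.7% were higher and 11.5% lower in M1, and 8.03% and 6.43% in M2. The largest rises in M1 were those of Socs3 and Socs1, which bind the kinases and receptors directly (log2 4.02 ± 0.33 and 2.86 ± 0.21, limma adjusted p = 3.13e-06 and 1.24e-06), and the largest in M2 were those of Socs2 and Cish, known targets of STAT5 (6.48 ± 0.13 and 3.77 ± 0.15, adjusted p = 1.89e-11 and 1.75e-08). Socs1 rose in M2 as well, with a log2 fold change of 3.66 close to that of Cish, and was higher in M2 than in M1 (M1 against M2 -0.80, adjusted p = 0.0318). Socs2 averaged 17.0 ± 0.22 units in M0 (SD, n = 3), 21.1 ± 2.40 in M1 (n = 3) and 1525 ± 199 in M2 (n = 2), the M0 and M1 values being below the array median on all arrays; with values under 64 units set to 64 its rise in M2 was 4.57 on the log2 scale. Socs6 and the JAK2-binding adaptor Sh2b3 fell in M1 (log2 -1.21 and -0.74), and the phosphatase Ptpn6 and the ubiquitin ligase Pdlim2 fell in M2 (log2 -1.17 and -0.93). The count of 4 lower in M2 dropped to 2 without M0 replicate 1, M2 replicate 1 or M2 replicate 2. Of 12 partners and adaptors, 2 were higher and 2 lower in M1, beside 13.7% and 11.5% of all genes. In M2 1 was higher and 3 lower, beside 8.03% and 6.43%. Irf9, the DNA-binding partner of STAT2, gave log2 fold changes of 0.33 ± 0.09 in M1 (adjusted p = 0.02) and -0.90 ± 0.10 in M2 (adjusted p = 8.41e-05). The adaptor Sh2b1 gave 0.37 in M1 (adjusted p = 0.0279), where Jun and the coactivator Ncoa1 fell (log2 -0.48 and -0.43). In M2 Jun gave 0.84 and Nmi, a STAT-interacting protein, -0.73. Leaving out 1 array moved the 2 higher partners in M1 to 0 (M0 replicate 2 or 3 left out) or to 1 (the first M0 array, or the first or second M1 array, left out), and the 3 lower in M2 to 1 (without M2 replicate 2).

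Targets of the STAT2-IRF9 complex were called in opposite directions in the 2 polarized states. Of 14 measured genes, 12 were higher and 1 lower in M1 (median log2 fold change 1.09), and 0 were higher and 13 lower in M2 (median -2.67; 0 and 14 at an unadjusted limma p under 0.05), and all 14 were higher in M1 than in M2 (median 4.21). Over all genes 13.7% were higher and 11.5% lower in M1, 8.03% and 6.43% in M2, and 11.5% higher in M1 than in M2. In M1 the chemokine Cxcl10 rose by 3.03 ± 0.20 and the oligoadenylate synthetase-like Oasl1 by 2.78 ± 0.24. In M2 the antiviral genes Ifit3 and Ifit2 fell (log2 -4.93 and -4.65, limma adjusted p = 1.89e-08 and 6e-08). The 1 gene lower in M1 was Oas2, which fell by 0.51 (adjusted p = 0.0318), a call lost without any 1 of the 6 M0 and M1 arrays. Cxcl10 averaged 415 ± 127 units in M0, 3296 ± 368 in M1 and 40.1 ± 7.65 in M2 (SD, n = 3, 3 and 2). The methods' t-test with adjustment called 0 of the 14 lower in M2, and 13 without adjustment.

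STAT6 targets showed a contrasting picture, with 15 of 19 higher and 0 lower in M2 (16 and 1 at an unadjusted limma p under 0.05, median log2 fold change 3.66), and 5 higher and 6 lower in M1 (median -0.02); 16 of the 19 were lower in M1 than in M2 (median -3.97). Over all genes 8.03% were higher and 6.43% lower in M2, 13.7% and 11.5% in M1, and 12.3% lower in M1 than in M2. Mgl2, a galactose lectin, and Retnla, the secreted protein FIZZ1, rose by 8.05 ± 0.14 and 7.98 ± 0.13 in M2, where the methods' t-test with adjustment called 9 of the 19 higher. Both lay below the array median on all M0 arrays (25.0 and 33.4 units), and with values under 64 units set to 64 the rises were 6.70 and 7.03 on the log2 scale. In M1 Ch25h, a cholesterol hydroxylase, and the chemokine Ccl22 rose by 2.99 and 2.86 on the log2 scale, while Mrc1, the mannose receptor, and Pparg, a lipid-sensing nuclear receptor, fell (log2 -6.05 and -3.85). Pparg in M1 (22.2 units) and Ch25h in M0 (20.1 units) were below the array median on all 3 arrays and Mrc1 in M1 (39.5 units) on 2 of 3. With values under 64 set to 64 the log2 fold changes were 1.31 for Ch25h, 2.24 for Ccl22, -5.36 for Mrc1 and -2.30 for Pparg, and 3 STAT6 targets rather than 5 were higher in M1. The STAT6 list holds Egr2, and the STAT3 list Myc, which the study picked from these arrays, so these genes are not independent evidence. Other list genes, Retnla, Mgl2, Cxcl10 and Ifit2 among them, also stand in the study's tables from these arrays. The lists were chosen with earlier results of these data known, so their counts are not independent evidence either. Of 11 STAT3 targets, 9 were higher and 1 lower in M1 (median 1.25), and 5 were higher and 2 lower in M2 (median 0.53). Lcn2, an iron-carrier binding protein, rose by 5.50 in M1 and fell by 1.95 in M2; Myc fell by 1.48 in M1, and in M2 Nfil3 and Timp1 rose by 2.48 and 2.09 while Mcl1 fell by 0.56. The counts in M2 became 3 higher without M2 replicate 2 and 0 lower without M2 replicate 1, and 2 were lower in M1 without M1 replicate 1. Of 7 STAT5 targets, 4 were higher and 2 lower in M1, and 3 were higher and 1 lower in M2. The kinase Pim1 and Cish rose by 0.99 and 0.82 in M1, where Ccnd1, cyclin D1, and Bcl2l1 fell (log2 -3.39 and -0.56); in M2 Ccnd1 fell by 0.78 (adjusted p = 0.0308), which became 0 genes lower without M0 replicate 2 or M2 replicate 2 and 2 without M1 replicate 3. Socs1, Socs2, Socs3, Cish, Usp18, Il4ra, Osm and Pim1 stand in more than 1 list.

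**Figure D4:**
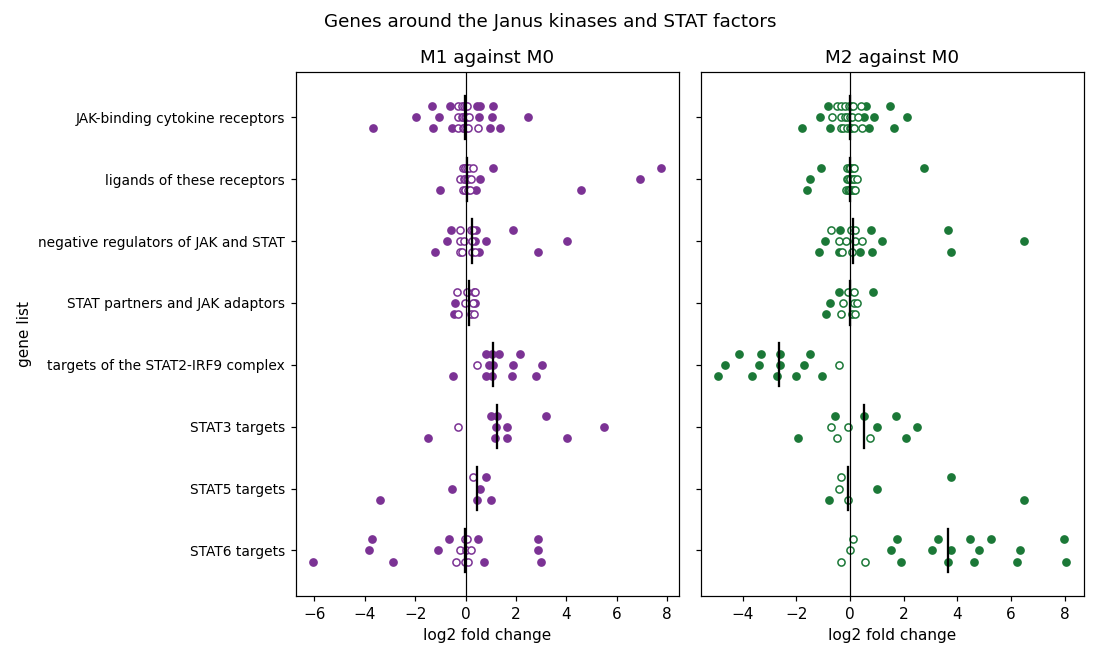
Log2 fold change (x axis) of each measured gene of the 8 lists (y axis) in M1 against M0 and M2 against M0, with filled circles for an adjusted p under 0.05 and a black bar at the list median. The STAT2-IRF9 targets lie mostly right of 0 in M1 (median 1.09) and left in M2 (median -2.67), and the STAT6 targets spread to both sides in M1 and to the right in M2 (median 3.66).

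The genes whose log2 values over the 8 arrays, centred on their own mean, lay nearest to a member were ranked by root mean square difference among 18192 other genes. Nearest to Jak2 were Syt7, Pde4b and Fmnl2 (differences of 0.20 to 0.24), with log2 fold changes of 3.25, 2.45 and 2.39 in M1 and 2.01, 1.58 and 1.75 in M2. Nearest to Stat2 were Gbp7, an interferon-induced GTPase (0.16), Epb41l3 (0.20) and Dhx58, an RNA sensor that is also among the STAT2-IRF9 targets (0.25). Gbp7 averaged 414 units in M0, 958 in M1 and 155 in M2. Nearest to Stat4 were Trim6, Glis3 and Dusp1 (0.14 to 0.15), of which Glis3 stayed below the array median in mean. Nearest to Stat5a were Syngr2, Npc1 and Aldh1a2 (0.10 to 0.14), with log2 fold changes of 0.94, 0.74 and 0.86 in M2. For the members that changed little the nearest genes were Eml4, Ppp1r3b and Zkscan5 for Jak1, Vat1l, Eif4g3 and 8030442B05Rik for Jak3, 1700011M02Rik, Ermp1 and Wdr47 for Stat3, Ucp1, Zap70 and Rab17 for Stat5b, and Gpr20, Taar1 and AU023762 for Stat6, several of them dim.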

How the data were processed

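Deposited values were linear intensities that the authors computed from Affymetrix scans by RMA (background correction, quantile normalization and probe summarization); the software settings are not given in the sources used here. The deposited intensities were converted to log2. Of 45101 probe sets 64 controls were left out. Symbols came from the platform annotation: 34945 probe sets had 1 symbol, 932 several and 9160 none listed. Of 146 pathway list entries 139 were found. limma 3.58.1 (R 4.3.3) fitted the means of the 3 conditions to all 8 arrays (5 residual degrees of freedom), two-sided, with Benjamini-Hochberg adjustment over 45037 probe sets; Python 3.11.15 made counts and plots. The study's t-test was an alternative, called the methods' t-test. The fit was tested on simulated data. A seeded log2 change of 0.5 was recovered in 22% of cases in M1 against M0 and 10.4% in M2 against M0. For a change of 2 the shares were 99.2% and 98%. Only 200 probe sets were changed per draw, fewer than were called in these data, so the shares need not hold here. Intensities carry no counts, so the number of arrays limits the precision. All 9 members are named; from each list, the 2 largest called rises and falls in M1 and in M2; and the 3 nearest genes of each member. Members, lists and motifs were chosen with earlier results of these data known. Arrays were not paired in the main fit, as in the study's unpaired t-test. Same-numbered arrays did not deviate together over all probe sets (7 pairs, correlations -0.17 to 0.05, beside -0.15 to 0.19 in 14 other pairs). With 2 or 3 arrays per condition this check cannot settle whether a shared prefix means the same mouse. Further lists of markers, for B cells, dendritic cells, neutrophils, mast cells and basophils, and fibroblasts, had summed intensities of at most 200 units, 233, 332, 112 and 357 on any array; 1 B cell marker was lower in M1, and 1 neutrophil marker was higher in M1 and 1 lower in M2. One fibroblast marker was higher in M1.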

Additional observations from a re-analysis of the deposited data

How the results depend on the processing

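Over the alternatives, 987 of 1077 values of the 19 probe sets in the 3 comparisons kept their side of the threshold, 51 fell short of it and 39 passed it. No value with a call in either fit changed sign. Values called in neither fit counted as kept even where their sign changed, as for Stat6 1421708_a_at in M1 against M0 (log2 -0.057 to 0.166). With each array left out in turn, 431 of 456 were kept. Centring arrays on their median moved 3 over the threshold and a further quantile normalization moved 0. The methods' t-test with adjustment, which pools no spread over genes, gave 3 higher and 1 lower in M1 against M0, 0 higher and 0 lower in M2 against M0 and 2 higher and 0 lower in M1 against M2; over all probe sets it called 5048, 270 and 1526, against 9175, 5483 and 8549 by limma. Without adjustment it gave 1 lower in M1 (Stat6 1426353_at both times) and 5 lower in M2. In M1 against M2 the 1 lower probe set (Stat5a) became 2 with only probe sets above 64 units on at least 2 arrays, with values under 64 set to 64 (probe sets at 64 on all arrays left out), with only the 2 conditions compared and with the replicate number as a block, and ranged from 0 to 2 with 1 array left out: 2 without M0 replicate 1 or M0 replicate 3, and 0 without M2 replicate 2. Setting values under 64 to 64 also took the calls of Stat3 1459961_a_at in M2 (log2 -0.13, adjusted p = 0.707) and in M1 against M2 (0.42, 0.148). For Stat5b in M1 the lead probe set and the other one reversed (-0.24 and 0.42). The pairing check cannot settle whether a replicate block is needed. With it, 54 of 57 values kept their side, and calls over all probe sets were 8503, 4798 and 7481. In M1 against M2 Jak3 (limma adjusted p = 0.0637) and Stat3 1426587_a_at (0.0592) lost their calls, and Stat5a 1450259_a_at passed (0.0198). Counting a gene by any of its probe sets gave 6 partners higher in M1 against 2 by lead, 5 negative regulators lower in M1 against 3, 7 lower in M2 against 4, 2 STAT3 targets lower in M1 against 1, and 2 partners higher in M2 against 1. It also gave 10 negative regulators higher in M1 and 8 in M2, against 7 each, and 3 partners lower in M1 against 2. Of the receptors, 8 were then higher in M2 against 7, and 5 lower against 4. With 2 arrays in M2 the limits are widest there, and fold changes of dim probe sets near the array median depend on how dim values are handled. The causes of these shifts were not tested.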
